A study of Homo sapiens with 6 samples.

Results

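The RAB GTPases are the largest branch of the RAS superfamily, and their transcripts were followed in HK2 cells grown with the flame retardant and plasticizer TBOEP. The genes were chosen by name, as the protein-coding rows of the expression table whose symbol is RAB followed by a number and at most a letter and a further digit. This gave 60 of 25808 rows. A further 3 rows fit the name pattern (RAB1C, RAB28P5 and RAB43P1), but they are processed pseudogenes and were left out.

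HK2 is an immortalised line derived from human kidney proximal tubule. TBOEP was given at 20 µM for 48 hours to confluent cells in 3 libraries, and 3 libraries came from cells labelled with the solvent DMSO, for which no dose or time is stated. All 6 libraries are of the same unmodified line. Nothing in the labels says whether the 3 libraries of a group came from separate cultures, so a p-value speaks of the scatter among these 6 libraries alone, and part of that scatter may be technical.

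RAB proteins are molecular switches that mark the surface of organelles and vesicles. Exchange factors load them with GTP on a membrane, where they recruit effectors such as tethers, motors and sorting complexes, and GTPase-activating proteins switch them off again. Each mature RAB carries lipid tails on cysteines at its C terminus, and GDP dissociation inhibitors pull the inactive protein off the membrane. In proximal tubule cells, RAB-guided endocytosis and recycling serve the uptake of filtered protein.

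The libraries held 32547856 to 38247579 reads, recovered from the deposited values. Levels are given as FPKM, the reads of a gene per kilobase of the length assigned to it, scaled to the depth of the library. A read on a gene of 1 kilobase was worth 0.0261 to 0.0307 FPKM. The assigned length is not that of 1 transcript. For RAB7A it came to 7194 bases, beside 2244 in its longest transcript and 2717 in its merged exons. The FPKM summed over all genes to between 361398 and 363918 in TBOEP libraries and to between 378135 and 381855 in DMSO libraries. Of 15 markers of renal epithelium, 12 had a row and only 5 were at 1 FPKM or more in at least 3 libraries. PAX8, ALPL, MIOX and CDH6 were among those 5, while CUBN, HNF4A and AQP1 stayed under 0.23 FPKM in every library. Keratins 8, 18 and 19 and EPCAM were high and CDH1 was at most 0.0393 FPKM. Of 20 markers of other cell types, 9 had a row, 3 (COL1A1, CSF1R and SYNPO) reached 1 FPKM, and the endothelial markers PECAM1 and CDH5 reached at most 0.0231 and 0.0397 FPKM. The summed level of those 20 markers was 32.9 to 33.1 FPKM with TBOEP and 36.2 to 40.4 FPKM with DMSO, and their part in the results was not tested. In bulk RNA, fewer cells of a type and less RNA per cell cannot be told apart.

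The sites that receive the lipid tails can be read from the end of each coding sequence. The last 30 coding bases before the stop codon, from GENCODE 29, are given for the members whose levels changed most, for the 4 most abundant members and for RAB11A, the relative of RAB11B. Capitals mark the cysteine codons.
RAB9A: cgaaagcccaagcctagctcatctTGCTGT
RAB38: gttgccagcTGCtctggcTGTgccaaatcc
RAB2B: cgtgacatagggtccaactctggcTGCTGC
RAB22A: cagccttcagagccaaagcggagcTGCTGC
RAB28: tctactcagagtagaatcTGTtcagtacag
RAB13: aagaagaacaccaacaagTGCtccctgggc
RAB32: ttgagagcagagaacaaatcccagTGTTGC
RAB34: gccagcaagaagaagcccacaTGTTGCcca
RAB1B: cctgtaaagccggctggcggtggcTGTTGC
RAB11B: cccaacaagctgcagTGCTGCcagaacctg
RAB11A: aagccaaaggtgcagTGCTGTcagaacatc

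Of the 60 members, 15 ended in a pair of cysteine codons and 20 in cysteine codons either side of 1 other codon. In 14 members the pair stood before 1 to 3 last codons, and 10 had a single cysteine codon among their last 5, at the fourth codon from the end, as in RAB13, RAB28 and RAB38. RAB6D, a RAB6 relative at no more than 4 reads in any library, had none in its last 5 codons. Among tested members, 7 of 14 with a pair at the very end were called higher and 3 lower. Of the 12 tested with cysteine codons either side of another, 3 were called higher and 1 lower. Of the 10 tested with a pair before the last codons, 4 were called higher and 2 lower. Of the 9 tested with the single cysteine codon, 3 were called higher and 1 lower. Over all tested genes 26.9% were called higher and 26.9% lower. These are counts and carry no test.

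Transcripts of 45 members passed the filter of 1 FPKM or more in at least 3 of the 6 libraries. A handful of genes supplied most of the RAB message: the 10 most abundant members held 71.7% of the summed RAB level with TBOEP and 76.1% with DMSO. By mean over all libraries the order was RAB32, which serves lysosome-related organelles, then RAB34, RAB1B and RAB11B. RAB32 was highest with TBOEP and RAB34 with DMSO. This order depends on the assigned lengths. RAB7A, rank 7 by mean FPKM, had 13515 reads in TBOEP replicate 1 and 11859 in DMSO replicate 1, against 10771 and 14121 for RAB34. The plot of all tested members by library shows a range from under 1 to over 100 FPKM. The summed level of the 60 members was 853 to 865 FPKM in TBOEP libraries and 835 to 848 FPKM in DMSO libraries.

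**Figure D1:**
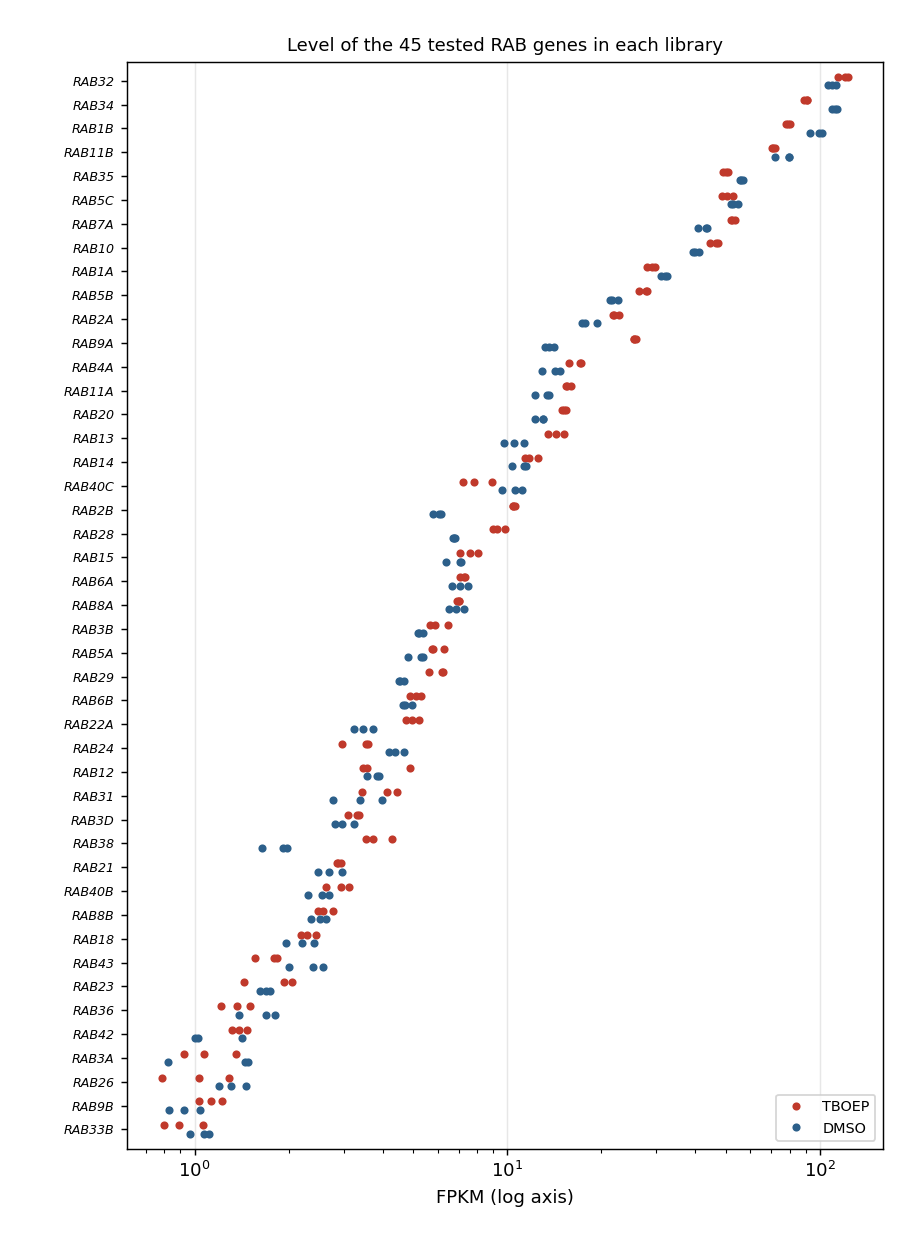
FPKM (log axis) of the 45 tested RAB genes in each library, in order of mean level, with a point for each of 3 TBOEP libraries above a point for each of 3 DMSO libraries. RAB32, RAB34, RAB1B and RAB11B lie at the top, and the TBOEP points lie clear to the right of the DMSO points for RAB9A, RAB2B and RAB38.

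With TBOEP, 17 of the 45 tested RAB transcripts rose and 7 fell, by limma on log2(FPKM + 1) with a Benjamini-Hochberg adjusted p under 0.05 over 9631 genes. The other 21 were not called. Over all tested genes 26.9% were called higher and 26.9% lower, 53.8% in all, so a call in itself was common. Among the 45 tested members, the 24 called were also the ones whose 3 TBOEP and 3 DMSO values did not overlap. Such a gap held for 30.5% of all tested genes in the higher direction, 31.8% in the lower and 62.3% in either. The median log2 fold change of the tested members was 0.10, and that of all tested genes was -0.02. The rises ranged up to 0.86 and the falls reached no further than -0.35. A rise of at least 0.4 was called in 6 members, beside 11.3% of all tested genes, and a fall of that size in none, beside 5.38%. These sizes hold for the log2(FPKM + 1) scale, which understates changes of low genes. With limma-voom, a fit on the recovered reads, the largest fall was -0.42 in RAB43 and the largest rise 1.06 in RAB38.

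**Figure D2:**
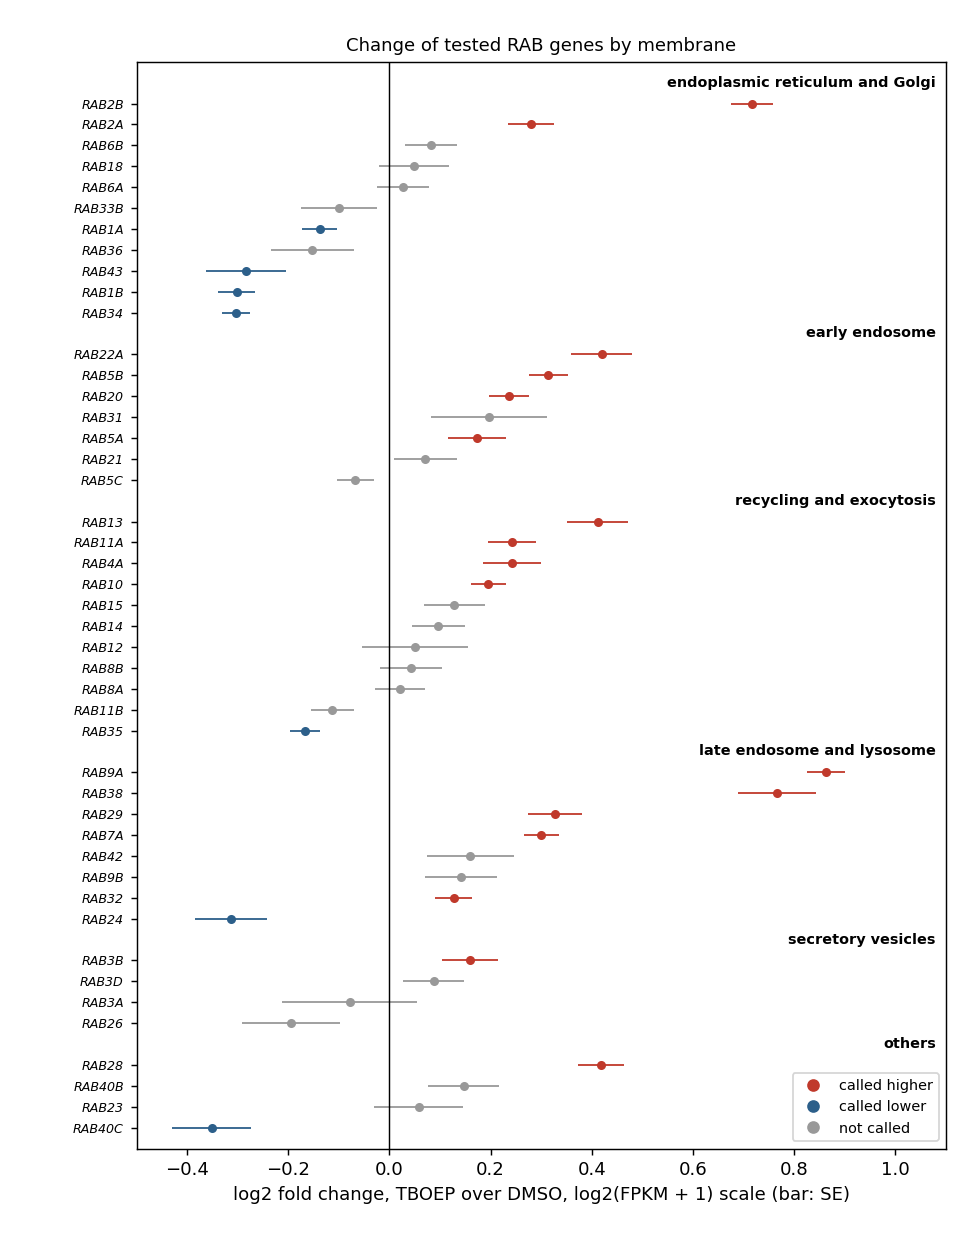
Log2 fold change of TBOEP over DMSO on the log2(FPKM + 1) scale for each tested RAB gene, grouped by the membrane it is known for, with bars of 1 standard error and colours for called higher, called lower and not called. RAB9A, RAB38 and RAB2B stand furthest to the right at 0.86, 0.77 and 0.72, and 4 of the 7 called falls lie in the endoplasmic reticulum and Golgi group.

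The RABs of late endosomes and lysosomes held the top 2 rises. RAB9A, which carries mannose 6-phosphate receptors from late endosomes back to the Golgi, had 25.5, 25.5 and 25.9 FPKM in TBOEP libraries, against 14.1, 13.2 and 13.6 FPKM in DMSO libraries. All 3 TBOEP values were well above all 3 DMSO values, with almost no spread within a group. RAB9A averaged 25.6 ± 0.208 FPKM with TBOEP and 13.6 ± 0.484 FPKM with DMSO (SD, n = 3 each), a log2 fold change of 0.86 (SE 0.04, limma adjusted p = 5.32e-07). RAB38, which with RAB32 sorts cargo to lysosome-related organelles, had 4.29, 3.52 and 3.71 FPKM with TBOEP, against 1.64, 1.92 and 1.97 FPKM with DMSO. Its lowest TBOEP value was well above its highest DMSO value. RAB38 averaged 3.84 ± 0.398 FPKM with TBOEP and 1.84 ± 0.176 FPKM with DMSO (SD, n = 3 each), a log2 fold change of 0.77 (SE 0.08, limma adjusted p = 5.31e-05). Adding 1 FPKM before the logarithm understates changes of genes this low, and limma-voom on the recovered reads gave 1.06.

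Within the same membranes, RAB7A, the main switch of late endosome and lysosome fusion, rose to 52.6 ± 0.809 FPKM with TBOEP, against 42.5 ± 1.42 FPKM with DMSO (log2 fold change 0.30, adjusted p = 9.71e-05). RAB29, a LRRK2 partner at the Golgi and at stressed lysosomes, rose by 0.33 on the log2 scale. RAB32 had 120.2, 115 and 123 FPKM with TBOEP, against 109, 112 and 106 FPKM with DMSO. Its groups lay close together without overlap, and the rise was small (0.13, SE 0.04, adjusted p = 0.0164); without TBOEP replicate 1 or 3 the adjusted p was 0.0540 or 0.0573. The RAB32 call was also lost with no filter on low values (adjusted p = 0.0754) and with libraries centred on their medians, where the change was 0.07 (adjusted p = 0.162). RAB24, linked to autophagy, fell to 3.36 ± 0.349 FPKM, against 4.41 ± 0.248 FPKM with DMSO (log2 fold change -0.31, adjusted p = 0.00552), and 44.8% of its exon bases are shared on the same strand with MXD3, so its reads may be split between those genes. RAB9B and RAB42 were not called. The share called over all tested genes was 26.9% in each direction. Of 8 tested members in this group, 5 rose and 1 fell, with a median log2 fold change of 0.23. Once the values were corrected for GC content and length, as set out with the composition of the transcripts, 2 were called higher and 0 lower, with a median of 0.06. Their summed level, untested members included, was 210 to 217 FPKM with TBOEP and 176 to 180 FPKM with DMSO.

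The RABs of the endoplasmic reticulum and Golgi moved both ways. RAB2B, one of a pair of RAB2 genes that act in Golgi tethering, had 10.6, 10.5 and 10.5 FPKM with TBOEP, against 6.05, 5.80 and 6.12 FPKM with DMSO. The groups were far apart and the TBOEP values almost equal. RAB2B averaged 10.5 ± 0.0573 FPKM with TBOEP and 5.99 ± 0.168 FPKM with DMSO (SD, n = 3 each), a log2 fold change of 0.72 (SE 0.04, limma adjusted p = 2.73e-06). Its relative RAB2A rose less, to 22.2 ± 0.521 FPKM with TBOEP, against 18.1 ± 1.02 FPKM with DMSO (log2 fold change 0.28).

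The falls in this group were in RAB34, RAB1B, RAB1A and the low RAB43. RAB34, which acts at the Golgi and in the building of intracellular cilia, had 91.0, 89.1 and 91.2 FPKM with TBOEP, against 112, 114 and 109.8 FPKM with DMSO. Every TBOEP value was below every DMSO value, and the log2 fold change was -0.30 (SE 0.03, limma adjusted p = 2.84e-05). RAB1B, which drives transport from the endoplasmic reticulum to the Golgi, had 78.1, 79.1 and 80.3 FPKM with TBOEP, against 99.5, 101 and 93.0 FPKM with DMSO. Again no values overlapped, and RAB1B fell by 0.30 on the log2 scale (SE 0.04, adjusted p = 0.000152). Its relative RAB1A fell too, to 28.9 ± 0.803 FPKM, against 31.8 ± 0.671 FPKM with DMSO (log2 fold change -0.14, adjusted p = 0.00958). RAB43, a Golgi RAB with a same-strand readthrough gene over 79.3% of its exon bases, fell to 1.73 ± 0.146 FPKM, against 2.33 ± 0.291 FPKM with DMSO (adjusted p = 0.0157, and 0.0558, 0.0502 or 0.0545 without TBOEP replicate 3, DMSO replicate 1 or DMSO replicate 2, and 0.0740 with no filter). RAB6A, RAB6B, RAB18, RAB33B and RAB36 were not called. The 11 tested members thus held 2 rises and 4 falls, beside 26.9% of all tested genes called in each direction. The median log2 fold change of the group was -0.10. Summed over the group, the level was 250 to 251 FPKM with TBOEP and 279.8 to 291 FPKM with DMSO.

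Early endosome members rose or were not called. RAB22A, which acts in early endosome sorting and recycling, had 5.22, 4.96 and 4.75 FPKM with TBOEP, against 3.23, 3.46 and 3.72 FPKM with DMSO. The lowest TBOEP value exceeded the highest DMSO value, and the log2 fold change was 0.42 (SE 0.06, limma adjusted p = 0.000413). RAB5B rose to 27.4 ± 0.835 FPKM with TBOEP, against 21.9 ± 0.726 FPKM with DMSO, and RAB5A to 5.95 ± 0.307 FPKM with TBOEP, against 5.16 ± 0.309 FPKM with DMSO. The RAB5A call was lost without TBOEP replicate 1 or 2 and without DMSO replicate 1 or 2, with adjusted p of 0.0503 to 0.113, and with the replicate block, no filter, quantile normalization or median centring, with adjusted p of 0.0735, 0.109, 0.117 and 0.119. RAB5 proteins direct the fusion of incoming endocytic vesicles. RAB5C, the most abundant of the 3, had 50.6 ± 1.98 FPKM with TBOEP and 53.0 ± 1.42 FPKM with DMSO and was not called; with libraries centred on their medians it was called lower (-0.13, adjusted p = 0.0187). RAB20, a RAB of phagosomes and early endosomes, rose by 0.24, and RAB21 and RAB31 were not called. The 7 tested members held 4 rises and no fall, beside 26.9% of all tested genes called in each direction. The median of the group was 0.20, with sums of 110 to 113 FPKM with TBOEP and 101 to 105 FPKM with DMSO.

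Among the RABs of recycling endosomes and exocytosis, RAB13, which carries junction proteins in epithelial cells, had 14.4, 13.5 and 15.2 FPKM with TBOEP, against 10.5, 9.76 and 11.3 FPKM with DMSO. The groups were separate, and the log2 fold change was 0.41 (SE 0.06, limma adjusted p = 0.000524). RAB11A and RAB4A, which send cargo back to the surface by slow and fast routes, each rose by 0.24. RAB10, a RAB of basolateral and GLUT4 transport, rose by 0.20. RAB35, which acts in fast recycling, fell to 49.9 ± 0.933 FPKM, against 56.1 ± 0.798 FPKM with DMSO (log2 fold change -0.17, adjusted p = 0.00143). RAB11B had 70.9, 70.1 and 71.8 FPKM with TBOEP, against 79.5, 79.5 and 71.7 FPKM with DMSO. A DMSO library lay inside the TBOEP range, and the difference of -0.11 was not called (adjusted p = 0.0507); without DMSO replicate 3 it was -0.16 (adjusted p = 0.00226). RAB11B was also called lower with limma-voom (adjusted p = 0.0164), with protein-coding genes alone (0.0297), with a filter at 5 FPKM (0.0287) and with libraries centred on their medians, where the change was -0.17 (0.0102). RAB8A, RAB8B, RAB12, RAB14 and RAB15 were not called either, which left 4 rises and 1 fall among 11 tested members. The share called over all tested genes was 26.9% in each direction.

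Of 8 RABs of regulated secretion, 4 passed the filter. RAB3B, a secretory vesicle RAB, rose, with 6.45, 5.65 and 5.89 FPKM with TBOEP, against 5.23, 5.17 and 5.37 FPKM with DMSO (log2 fold change 0.16, adjusted p = 0.0367). It lost its call in 5 of the 6 fits that left out a library, with the replicate number as a block (adjusted p = 0.0574), and with no filter, quantile normalization or median centring (adjusted p = 0.113, 0.153 and 0.147). RAB3A, RAB3D and RAB26 were not called. RAB28, a ciliary RAB mutated in a cone-rod dystrophy, had 9.82, 9.25 and 9.03 FPKM with TBOEP, against 6.71, 6.78 and 6.79 FPKM with DMSO. The groups were well separated and the log2 fold change was 0.42 (SE 0.05, limma adjusted p = 8.4e-05). RAB40C, which carries a SOCS box for a ubiquitin ligase, fell to 7.99 ± 0.892 FPKM, against 10.4 ± 0.758 FPKM with DMSO (log2 fold change -0.35, adjusted p = 0.00536), and RAB40B and RAB23 were not called. RAB23 shares 57.7% of its exon bases with BAG2 on the opposite strand, and whether counting used strand is not known.

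The 15 members that failed the filter were at most 1.05 FPKM in any library. RAB27A was the highest, with 0.934 to 1.05 FPKM in TBOEP libraries and 0.712 to 0.935 FPKM in DMSO libraries, from 271 to 420 reads each. At lower counts the recovered reads are less certain. RAB17, RAB19, RAB30, RAB39A and RAB7B had 26 to 138 reads each in a library. RAB33A, RAB4B, RAB40A, RAB27B, RAB6D, RAB37 and RAB39B had at most 31. RAB25 was at 0 reads in the 3 TBOEP libraries and had 2 reads in 1 DMSO library, and RAB3C likewise.

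Relatives of close sequence are set side by side in the plot of related genes. Reads of such copies may be split between them by the counting, which also holds for RAB43 and RAB43P1, RAB28 and RAB28P5, and RAB6A and RAB6D. Exon overlap with a same-strand gene touches, among others, RAB13 (24.8% of exon bases), RAB5C (28.8%) and RAB4A (19.6%). With an opposite-strand gene it touches, among others, RAB8A (37.8%), RAB1B (29.3%), RAB1A (22.9%), RAB3D (20.5%) and RAB35 (14.8%). For 15 pairs of tested relatives, the difference of their log2(FPKM + 1) in each library was compared between groups. It is called the log2 ratio here, and the added 1 FPKM changes its size where a member is low, as RAB38 and RAB9B are. In 8 pairs the 3 TBOEP ratios and the 3 DMSO ratios did not overlap. The share among pairs of other genes was not computed, and 62.3% of single tested genes did not overlap. The two-sided exact permutation test gave p = 0.1 for each of those 8, the smallest that 3 against 3 allows, and 0.19 after Benjamini-Hochberg adjustment over the 15 pairs, so none passed. The ratio of RAB9A to RAB9B was 0.72 higher with TBOEP on the log2 scale. RAB38 took 3.11% of the combined RAB32 and RAB38 level with TBOEP and 1.66% with DMSO. RAB2B took 32.1% of the RAB2 level with TBOEP and 24.8% with DMSO. RAB11A took 18.1% of the RAB11 level with TBOEP and 14.6% with DMSO. RAB5B took 32.7% of the RAB5 level with TBOEP and 27.3% with DMSO. Several of these pairs differ in GC content, and the correction for GC content and length moved their ratios. The RAB11A to RAB11B ratio was 0.36 higher with TBOEP before it and 0.08 after it, and the RAB40B to RAB40C ratio 0.50 before it and 0.08 after it. The RAB1A to RAB1B ratio turned from a difference of 0.16 to one of -0.09. The RAB9A to RAB9B difference was 0.67 after it, the RAB5B to RAB5C difference 0.30 (0.38 before), the RAB2A to RAB2B difference -0.29 (-0.44 before) and the RAB32 to RAB38 difference -0.43 (-0.64 before). The combined RAB1 level was 108 ± 0.855 FPKM with TBOEP and 129.8 ± 4.49 FPKM with DMSO, and the combined RAB2 level was 32.7 ± 0.510 FPKM with TBOEP and 24.1 ± 1.12 FPKM with DMSO.

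**Figure D3:**
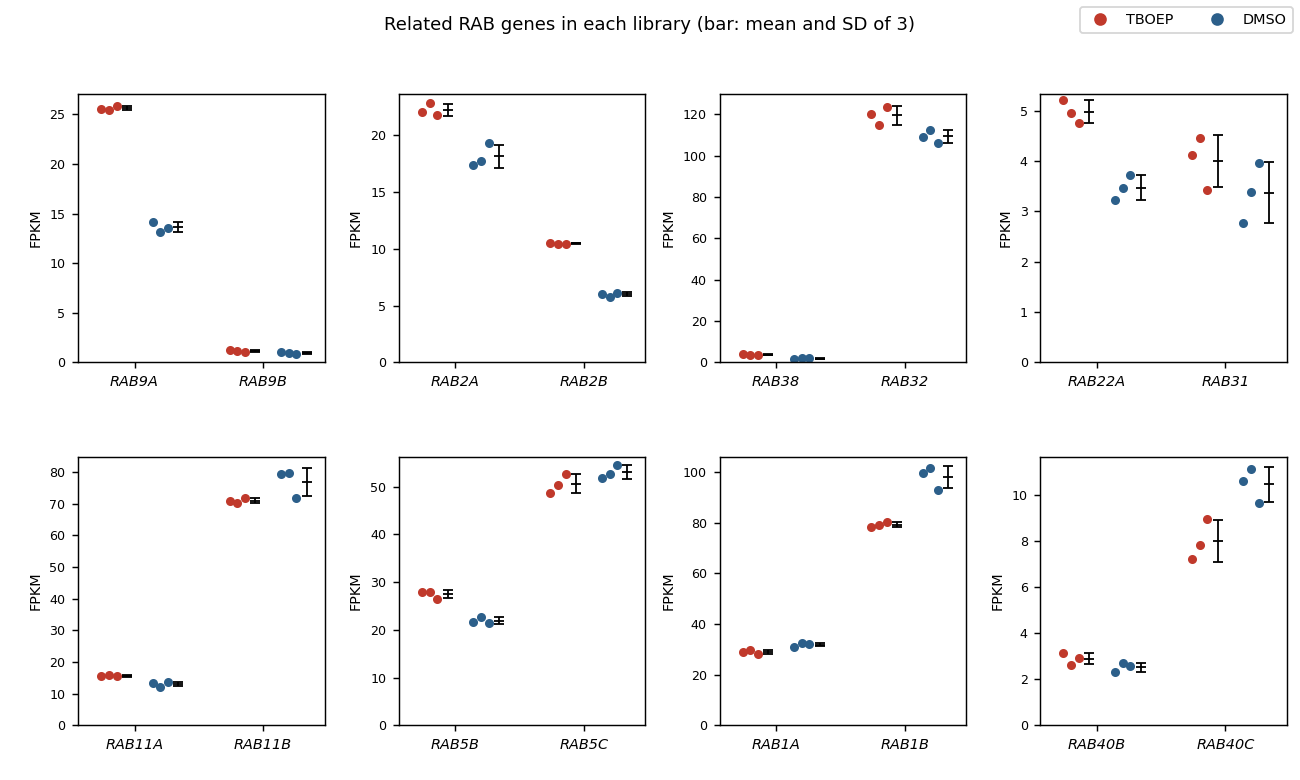
FPKM of related RAB genes in each library, with TBOEP left of DMSO for each gene and bars for the mean and SD of 3 libraries; each panel has its own axis from 0. RAB9A and RAB2B lie clearly higher with TBOEP, RAB1B and RAB40C lower, and the RAB11B values of the groups overlap.

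Members with GC-rich transcripts were mostly the ones that fell, and this was so over all genes too. Across the 45 tested members, the GC content of the longest transcript and the log2 fold change had a Pearson correlation of -0.55 and a Spearman correlation of -0.45. Over 9529 genes the values were -0.32 and -0.33. These describe genes that share the same 6 libraries, and genes are not independent replicates. Transcripts of called-higher members had a median GC content of 43.0% (37.2 to 57.7%), and those of called-lower members 61.1% (38.3 to 64.4%). Of the 7 tested members at 60% GC or more, 5 fell and none rose, while among all genes in that range 64.7% were called lower and 0.964% higher. Of the 6 members at 45 to 50% GC, 5 rose, where 47.3% of all genes did. RAB1A, at 38.3% GC, was the 1 fall among the 12 members under 40% GC, of which 4 rose. Among all genes under 40% GC, 21.4% were called lower and 19.3% higher, with a median log2 fold change of -0.04. The dependence on GC content over all genes was therefore not a straight line.

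**Figure D4:**
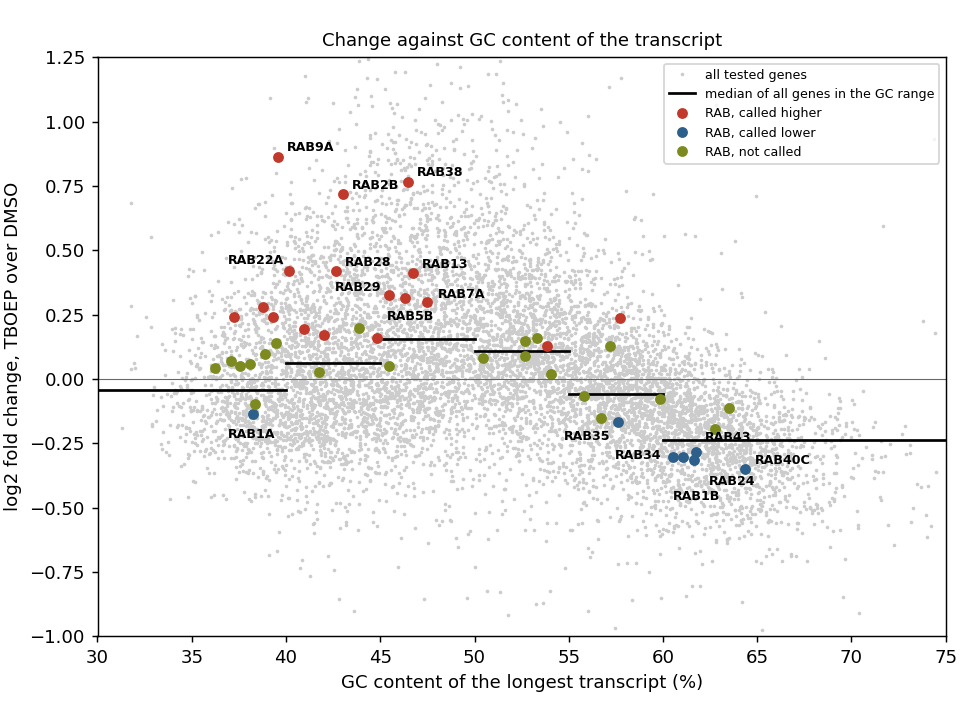
Log2 fold change of TBOEP over DMSO against the GC content of the longest transcript for all tested genes (grey), with RAB genes coloured by call and black lines for the median of all genes in each GC range; 50 of 9529 genes lie outside the axes. RAB9A, RAB38 and RAB2B stand above the line for their GC range, and RAB34, RAB1B, RAB43, RAB24 and RAB40C lie near the line for 60% and above.

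When the part of each library's values that followed GC content and transcript length was removed, 14 members were called higher and 3 lower, beside 23.7% and 20.8% of all genes. Of the 17 rises 12 kept their call, and of the 7 falls 3 did. RAB9A kept a log2 fold change of 0.78, RAB2B 0.56, RAB22A 0.53, RAB38 0.45 and RAB28 0.24. RAB13 came to 0.09, RAB29 to 0.12, RAB5A to 0.04, RAB32 to 0.02 and RAB7A to -0.01, and none of these was called. RAB1B came to -0.07, RAB40C to -0.06, RAB24 to -0.02 and RAB43 to -0.12, again not called, while RAB34 (-0.08), RAB35 (-0.12) and RAB1A (-0.16) were. RAB11B turned to 0.21 and RAB21 to 0.25, and both were then called higher. RAB3B was at 0.37. By membrane, the members of the endoplasmic reticulum and Golgi then held 2 called higher and 2 lower, those of early endosomes 4 and 0, and those of recycling endosomes and exocytosis 4 and 1. The cause of the dependence on composition was not tested.

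**Figure D5:**
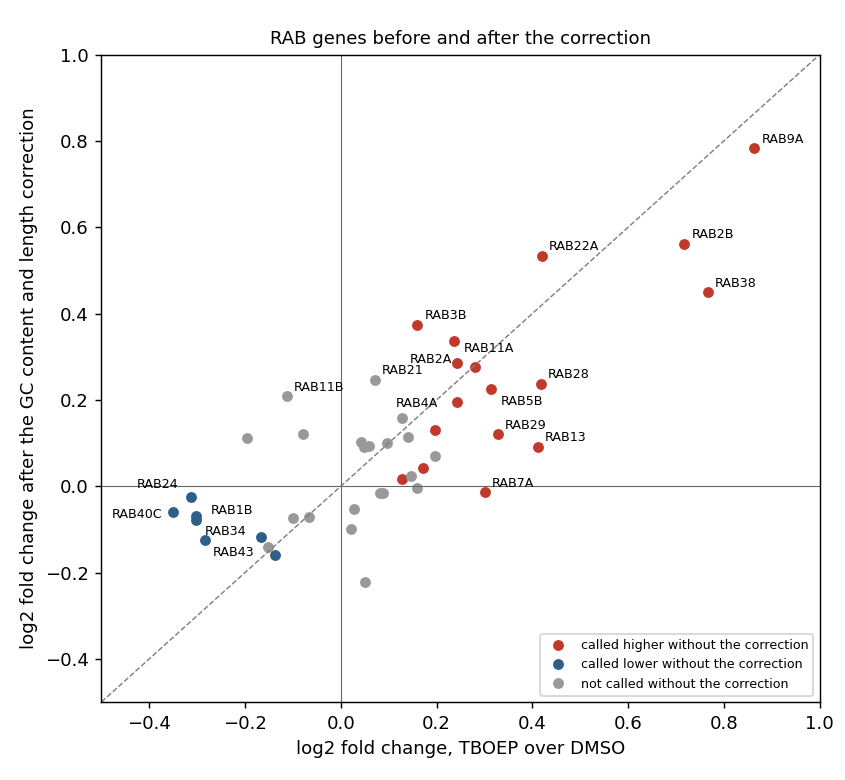
Log2 fold change of TBOEP over DMSO for the tested RAB genes before (horizontal) and after (vertical) the correction for GC content and transcript length, coloured by the call before it; the dashed line marks equal values. RAB9A, RAB2B, RAB22A and RAB38 stay above 0.4, and the members called lower move up toward 0, except RAB1A, which moves down.

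Start-site windows from RefSeq, taken from 250 bases before to 50 after the start, were found for 48 of the 60 members. They are printed for the top rises with an entry and for RAB1B, the abundant gene that fell, on GRCh38.p14. Capitals mark GGGCGG or CCAAT on either strand.
RAB9A, chrX:13688878-13689177, plus strand: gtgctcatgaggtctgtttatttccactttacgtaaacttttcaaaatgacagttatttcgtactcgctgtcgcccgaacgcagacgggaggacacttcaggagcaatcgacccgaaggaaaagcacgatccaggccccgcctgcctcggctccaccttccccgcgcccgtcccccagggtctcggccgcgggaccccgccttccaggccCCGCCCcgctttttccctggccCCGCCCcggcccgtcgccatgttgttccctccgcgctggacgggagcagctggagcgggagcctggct
RAB2B, chr14:21476910-21477209, minus strand: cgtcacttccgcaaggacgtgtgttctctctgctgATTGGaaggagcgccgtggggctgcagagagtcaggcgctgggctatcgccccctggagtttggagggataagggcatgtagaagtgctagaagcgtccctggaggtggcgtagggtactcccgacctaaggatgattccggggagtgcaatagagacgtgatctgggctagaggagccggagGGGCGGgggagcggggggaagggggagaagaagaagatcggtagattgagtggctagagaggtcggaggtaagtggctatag
RAB22A, chr20:58309465-58309764, plus strand: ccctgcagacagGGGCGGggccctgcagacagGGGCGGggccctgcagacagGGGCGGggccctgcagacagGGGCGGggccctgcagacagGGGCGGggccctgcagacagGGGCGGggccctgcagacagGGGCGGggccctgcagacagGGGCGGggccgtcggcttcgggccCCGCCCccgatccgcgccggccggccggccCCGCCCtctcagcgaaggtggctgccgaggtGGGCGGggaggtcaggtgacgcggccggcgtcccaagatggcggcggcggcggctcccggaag
RAB1B, chr11:66268389-66268688, plus strand: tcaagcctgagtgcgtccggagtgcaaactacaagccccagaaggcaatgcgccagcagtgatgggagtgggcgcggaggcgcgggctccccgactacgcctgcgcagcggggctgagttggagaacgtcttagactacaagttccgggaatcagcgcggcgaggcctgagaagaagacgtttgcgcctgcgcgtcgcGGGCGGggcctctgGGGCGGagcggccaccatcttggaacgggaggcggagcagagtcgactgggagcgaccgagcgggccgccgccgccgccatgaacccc

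GGGCGG, a GC box letter run, occurred 2 times in the RAB9A window, 1 time in RAB2B, 11 times in RAB22A and 2 times in RAB1B. On either strand it was present in 81.3% of the 48 RAB windows and in 44.95% of all 35116 windows. The RAB windows are of protein-coding genes, while all windows were taken without a choice by gene type. The median GC content of all windows was 58.7%, and the part of GC content in these shares was not tested. CCAAT was present in 25.0% of RAB windows and 34.6% of all. CACGTG, the letters read by basic helix-loop-helix factors such as those of lysosomal genes, was present in 12.5% and 7.26%, TGACGTCA in 2.08% and 1.85%, and TATAAA in 6.25% and 11.5%. CACGTG was in 3 of 14 windows of members called higher, RAB4A, RAB5A and RAB29, in 1 of 6 of members called lower, RAB24, and in neither RAB9A nor RAB2B. The median GC content of the windows was 64.7% for members called higher and 74.2% for members called lower. A match is a description of letters and not a site.

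The machinery around the RABs was changed in both directions. Over 5 lists of exchange factors, exchange complexes, GTPase-activating proteins, effectors and the prenylation and GDI genes, 28 of 100 tested genes rose and 28 fell, near the 26.9% called in each direction over all genes. After the GC content and length correction 26 were called higher and 15 lower, beside 23.7% and 20.8% of all genes. Among the genes of prenylation, delivery and extraction, 4 of 9 rose and 3 fell. GDI2, which extracts RABs from membranes, rose to 28.7 ± 1.62 FPKM with TBOEP, against 18.5 ± 0.251 FPKM with DMSO (log2 fold change 0.61, adjusted p = 8.81e-06). The Golgi membrane protein YIPF1 rose by 0.74 and the PRA1 family member ARL6IP5 by 0.44, and YIPF2 fell by 0.37. RABGGTB, the catalytic subunit of the RAB geranylgeranyl transferase, fell to 4.77 ± 0.123 FPKM, against 5.76 ± 0.191 FPKM with DMSO. RABGGTA, its partner, had 0.196, 3.26 and 6.10 FPKM with TBOEP, against 7.41, 2.16 and 3.27 FPKM with DMSO. Those values scattered within each group far more than the groups differed, and RABGGTA was not called.

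Exchange factors held 6 rises and 3 falls among 17 tested genes, beside 26.9% of all tested genes called in each direction. The same share stands beside the lists that follow here. DENND1A, an exchange factor for RAB35, and RIN2, one for RAB5, each rose by 0.34, and RAB3IL1 and SBF1 fell by 0.39 and 0.35. Of 12 tested subunits of exchange complexes, 2 rose and 5 fell. TRAPPC3 rose by 0.30, and TRAPPC6A, TRAPPC1 and TRAPPC2L fell by 0.38, 0.19 and 0.19. TRAPP is the exchange complex of RAB1. Of 24 tested GTPase-activating proteins, 7 rose and 2 fell. TBC1D22B rose by 0.38, TBC1D7 by 0.32 and TBC1D20, which acts on RAB1, by 0.27, and EVI5L fell by 0.25.

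Of 38 tested genes on the effector list, 9 rose and 15 fell, beside 26.9% of all tested genes called in each direction. After the correction for GC content and length 9 were called higher and 8 lower, beside 23.7% and 20.8% of all genes. RABEPK, an effector of RAB9, rose to 15.6 ± 0.635 FPKM with TBOEP, against 10.8 ± 0.567 FPKM with DMSO (log2 fold change 0.50, adjusted p = 4.9e-05). SYTL3, an effector of RAB27, rose to 14.9 ± 0.928 FPKM with TBOEP, against 8.32 ± 0.410 FPKM with DMSO (log2 fold change 0.77). KIF20A, a mitotic kinesin first described as a RAB6 partner, fell by 0.48, and the Golgi protein TMEM115 by 0.29. Of the 4 genes named from the effector list, TMEM115 was at -0.0044 after the correction and lost its call. The other 3 kept theirs, RABEPK at 0.20, SYTL3 at 0.52 and KIF20A at -0.73.

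Of the other regulators named, TRAPPC3, TRAPPC6A, TRAPPC1, RAB3IL1 and EVI5L lost their calls after the correction. YIPF1 came to 0.41, YIPF2 to -0.14, GDI2 to 0.37 and SBF1 to -0.18, and RIN2 came to 0.19, TBC1D22B to 0.17, TBC1D7 to 0.18 and TBC1D20 to 0.13, all smaller changes that kept their calls. DENND1A came to 0.43, a larger change than before, and TRAPPC2L to -0.16, and both kept their calls. By list, the genes of prenylation, delivery and extraction held 3 called higher and 2 lower after it, exchange factors 4 and 2, exchange complexes 1 and 2, and GTPase-activating proteins 9 and 1. Among all genes 23.7% were then called higher and 20.8% lower.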

How the data were processed

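RNA-seq was made from HK2 cells in 3 TBOEP and 3 DMSO libraries, grouped by the treatment label. Trimmomatic and HISAT2 are named without versions, per the submitters' processing notes. For the counter, build and annotation nothing was stated in the sources used here, and the labels name 2 library kits, so use of strand is unknown. The authors deposited 1 value per gene and library with no unit in the header, and the values were taken as FPKM. Whole reads were recovered for all 25808 genes within 0.01 reads, with a fitted factor for each library. That alone does not single out FPKM, but the sums over genes differed between libraries. Read totals were set from GENCODE 29 exon lengths, which equalled the implied length in 1665 of 8091 genes with over 300 reads in TBOEP replicate 1.

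GENCODE 29 gave biotype, GC content, length, exon overlaps and coding ends (APPRIS principal transcript). The test was limma 3.58.1 in R 4.3.3, trended and robust, on log2(FPKM + 1), two-sided, over the 9631 genes that reached 1 FPKM in 3 or more libraries, with Benjamini-Hochberg adjustment. The correction used mgcv 1.9.3 to subtract, library by library, the part of the values fitted by GC content and log length, for 98.9% of tested genes. The fit was tested on simulated data of 9631 genes, where it recovered 56.2% of genes changed 1.25-fold and 94% changed 1.5-fold. Of its calls, 8.28% fell on unchanged genes. Each simulation changed 200 genes, with the same scatter setting for all genes and no shift by GC content. In the real data 53.8% of genes were called and changes followed GC content, so these rates may not carry over. No replicate pair agreed within sampling noise.

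Values in all 6 libraries are given for called members with a log2 fold change of at least 0.4 in size and no overlap. They are also given for the 4 most abundant members, and for relatives called in opposite directions, of which the main fit held none. With median centring RAB5C and RAB11B were called lower while RAB5B and RAB11A stayed called higher. RAB11B was called lower in other alternatives too. Of each regulator list, up to 4 called genes with the smallest p are named. RABGGTA and RABGGTB were named after their values were seen. Some genes of the marker and regulator lists are not reported here. The members and lists were chosen with earlier results of these data known. Paralog ratios were compared by an exact permutation test in SciPy 1.17.1. The alternatives are listed in the closing section.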

Additional observations from a re-analysis of the deposited data

How the results depend on the processing

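The 17 alternatives were a pseudocount of 0.1, no filter, a filter at 5 FPKM, quantile normalization, median centring, limma without trend or without robust moderation, the replicate block, 6 fits without 1 library, limma-voom on recovered reads, the GC content and length correction, and protein-coding genes alone. The count of members called higher was 14 to 17 and of those called lower 3 to 9; the 9631 genes gave 5178 calls, and between 3714 (filter at 5 FPKM) and 5530 (limma-voom) under the alternatives. The count of members called lower was 3 after the GC content and length correction, and that of regulators and effectors was 30 with a filter at 5 FPKM, where fewer genes were tested, against 56. Centring the libraries on their medians gave 14 higher and 9 lower members and moved the median of all genes to -0.08. Leaving out 1 library gave 14 to 16 higher and 6 to 8 lower members, 43 to 51 regulators and effectors and 4556 to 4774 genes. Replicate numbers did not pair the libraries: the correlations of same-numbered deviations were 0.11, -0.03 and 0.01. With the replicate number as a block, 15 members were higher, 7 lower, 49 regulators and effectors and 4791 genes were called; RAB3B (adjusted p = 0.0574) and RAB5A (adjusted p = 0.0735) lost their calls.

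Direction turned for these members. After the GC content and length correction RAB11B was at 0.21, RAB7A at -0.014, RAB6A at -0.052, RAB8A at -0.099, RAB6B at -0.016, RAB12 at -0.22, RAB3D at -0.016, RAB42 at -0.0053, RAB3A at 0.12 and RAB26 at 0.11. After median centring RAB6A was at -0.032, RAB8A at -0.039, RAB12 at -0.0094, RAB8B at -0.017, RAB18 at -0.011 and RAB23 at -0.0016. After quantile normalization RAB6A was at -0.029 and RAB8A at -0.038. Over the left-out libraries RAB6A ranged between -0.0083 and 0.066, RAB8A between -0.013 and 0.057, RAB12 between -0.079 and 0.12, RAB18 between -0.0037 and 0.097 and RAB23 between -0.0058 and 0.16. RAB42 was called higher without DMSO replicate 1 (adjusted p = 0.0268) and RAB26 lower without TBOEP replicate 3 (adjusted p = 0.0364). The causes were not tested. Low members are limited by depth: 1 read was worth up to 0.0307 FPKM on 1 kilobase.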
